A study of Mus musculus with 32 samples.

Results

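Stat3 and the genes that carry signals of the gp130 cytokine family were followed in spinal cord astrocytes and in whole lumbar spinal cord of mice, with and without a limb-injury pain model. The 10 genes were taken by symbol from 55938 genes: the receptors Il6st, Lifr, Osmr, Cntfr and Il6ra, the kinases Jak1, Jak2 and Tyk2, the transcription factor Stat3, and the inhibitor Socs3. Each symbol matched 1 gene, and all 10 passed the filter on low counts in every comparison. They were chosen by name with earlier results of these libraries known, so the values below describe them.

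All mice had the genotype that the labels spell Aldhl1l-CreER;Rpl22-HA: a recombinase driven from the astrocyte gene Aldh1l1 and switched on by a drug, together with a ribosomal protein that gains an HA tag where the recombinase acts. Trap libraries held RNA pulled down with tagged ribosomes, and Input libraries held RNA of the whole homogenate. Fractured mice, a model of complex regional pain syndrome, were taken 3, 5 and 7 weeks after fracture, and uninjured mice of the same genotype served as controls. There were 24 Trap libraries, 3 for each sex at each of these 4 injury states, and 8 Input libraries, 1 for each sex and state. The labels give no ages and do not say whether libraries came from separate animals. P-values therefore rest on the spread among libraries, which may be technical.

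Cytokines of this family, among them IL-6, LIF, oncostatin M and CNTF, act through receptor complexes that contain gp130, the product of Il6st. Bound complexes activate the JAK kinases, which phosphorylate STAT3. Phosphorylated STAT3 then enters the nucleus and switches on target genes, including Socs3, whose product shuts the receptor complex down. In astrocytes this route is known for its part in the reactive response to injury of the central nervous system. The libraries measured RNA and hold no measure of phosphorylation.

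Library totals lay between 17124034 and 23189228 counts. The tagged fraction matched its label: all 10 astrocyte markers were higher in Trap (median log2 difference 3.25), and all 10 markers each of neurons, oligodendrocytes, microglia and endothelial cells were lower. Of the remaining markers tested, 4 mural and meningeal ones were higher and 6 lower, 1 Schwann cell marker was higher and 2 lower, and all 7 of blood and neutrophils were higher (median 2.46). A pair of Trap libraries stood apart, each described by a different measure. Female 3 weeks replicate 3 had the lowest summed astrocyte markers, 48737 CPM (counts scaled to a common library size by TMM), and the highest summed neuron markers, 1008 CPM, of all Trap libraries. Male 7 weeks replicate 2 differed from its fellow replicates by chi-square values of 67.8 and 45.9 per gene, against 11.5 between those fellows. Among the members it held the lowest Trap level of Jak1, Jak2, Il6st and Osmr and the highest of Cntfr.

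In the astrocyte fraction most of the machinery was present at higher levels than in whole cord, and Il6ra was the exception. All 10 genes passed the test between Trap and Input, 9 of them higher and 1 lower in Trap (edgeR quasi-likelihood test, Benjamini-Hochberg adjusted p under 0.05). Of all 16804 genes tested, 88% passed, 43.8% higher and 44.2% lower, so passing sets the members apart from few genes, and their sizes tell more. The median log2 difference was 0.62 over the members and 0.01 over all genes tested. In bulk libraries fewer cells of a type and less RNA per cell cannot be told apart.

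The receptors spread most widely. Cntfr encodes the alpha receptor that binds CNTF and lies on chromosome 4 (41657498 to 41697089, minus strand, GRCm38 with GENCODE M21, as for all positions here). It ranged from a lowest 414 through a median of 556 to a highest 770.5 CPM in Trap, against 72.8, 85.8 and 99.7 CPM in Input. These ranges were far apart, and the log2 difference was 2.72 ± 0.063 (SE, n = 24 and 8). Osmr, on chromosome 15 (6813577 to 6874969, minus strand), is the receptor chain that pairs with gp130 for oncostatin M. It ran from 4.07 through 7.38 to 17.7 CPM in Trap, against 1.20, 1.66 and 2.41 CPM in Input, a log2 difference of 2.26 ± 0.162. Il6st stood at 278, 394 and 435 CPM (lowest, median and highest) in Trap, against 109.8, 120.2 and 128 CPM in Input, with a log2 difference of 1.66 ± 0.067. Lifr, the chain used by LIF and CNTF, overlapped between the fractions, at 56.1 to 145 CPM in Trap against 56.9 to 92.0 CPM in Input, with a log2 difference of 0.29 ± 0.090 (adjusted p = 0.00376).

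Il6ra, the alpha receptor that binds IL-6, lay the other way. It had 0.156, 0.86 and 1.69 CPM (lowest, median and highest) in Trap, against 2.91, 3.68 and 5.38 CPM in Input. No Trap library reached the lowest Input library, and the log2 difference was -2.20 ± 0.172. Trap libraries held 3 to 31 estimated counts of Il6ra, so single Trap values carry large counting error. Summed microglial markers were also lower in Trap, at 54.2 to 77.5 CPM against 266 to 369 CPM in Input, and their part in the Il6ra level was not tested.

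Among the signalling genes, Stat3 (chromosome 11, 100885098 to 100939540, minus strand), the transcription factor of the pathway, had 116, 147 and 251 CPM (lowest, median and highest) in Trap, against 68.6, 74.2 and 87.9 CPM in Input, without overlap and with a log2 difference of 1.01 ± 0.074. Jak1, the kinase most tied to gp130, ran from 182 to 303 CPM in Trap against 142 to 168 CPM in Input, again without overlap, with a log2 difference of 0.65 ± 0.063. Libraries did not overlap for 6 members in all (Cntfr, Osmr, Il6st, Stat3 and Jak1 higher, Il6ra lower in Trap), against 54.4% of all genes tested, 26.7% higher and 27.8% lower. Socs3 lies on the same strand of chromosome 11 (117966079 to 117970047). Its log2 difference was 0.60 ± 0.193 (adjusted p = 0.00479), with overlapping ranges of 0.936 to 4.63 CPM in Trap and 0.882 to 2.54 CPM in Input. Jak2 and Tyk2 differed by 0.26 ± 0.084 and 0.25 ± 0.083, and both overlapped.

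The small differences rest on the scaling. With DESeq2 size factors the median of all genes moved by -0.129 on the log2 scale, and Lifr (0.16), Jak2 (0.13) and Tyk2 (0.12) no longer passed, with adjusted p of 0.0884, 0.142 and 0.151 in edgeR, while 87.6% of all genes did. Socs3 no longer passed among replicate 1 libraries alone, with sex and injury state as a block (log2 difference 0.42, adjusted p = 0.0923), where 84.4% of all genes did.

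**Figure D1:**
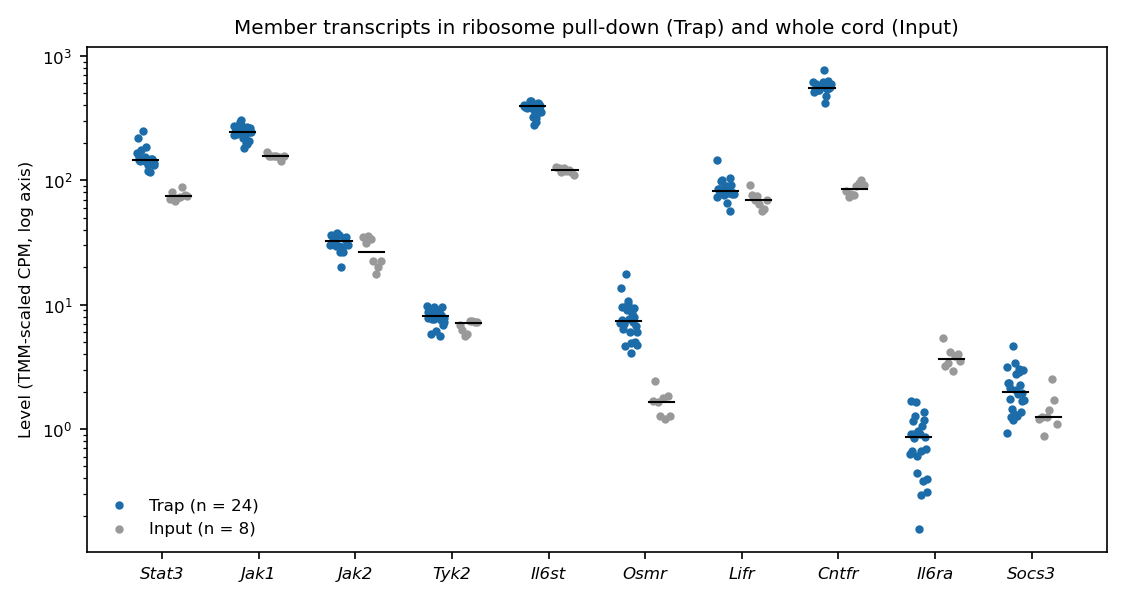
Level of each member in every library, as TMM-scaled CPM on a log axis, with Trap (blue, 24 libraries) left of Input (grey, 8 libraries) and black lines at the medians. Cntfr, Il6st, Osmr, Stat3 and Jak1 are higher in every Trap library than in any Input library, Il6ra is lower, and the other 4 genes overlap.

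Per kilobase of merged exon the members spanned a wide range of levels in the astrocyte fraction. Cntfr led at 202 ± 22.7 CPM per kb (SD, n = 24), and its range overlapped no other member. Il6st (34.2 ± 3.85) and Jak1 (34.0 ± 4.18) came next and could not be ordered by their spread, followed by Stat3 at 16.1 ± 3.11 CPM per kb, whose range of 12.2 to 26.3 reached the lowest library of Jak1 (25.2) and the highest of Lifr (13.4). Lifr (7.91 ± 1.53) overlapped with Jak2, which had a median of 6.49 and a range of 3.98 to 7.52. Tyk2 (1.17 ± 0.162), Socs3 (0.744 ± 0.302) and Osmr (0.659 ± 0.254) had overlapping ranges, and Il6ra was lowest at 0.0965 ± 0.0476 CPM per kb. In Input the same scale gave 30.7 ± 3.56 for Cntfr, 21.6 ± 0.984 for Jak1 and 10.8 ± 0.518 for Il6st (SD, n = 8), so Jak1 stood above Il6st in whole cord and level with it in Trap. Spread differed as widely: the coefficient of variation over the 24 Trap libraries was 11.2% for Cntfr, 11.3% for Il6st and 12.3% for Jak1. It was 19.4% for Stat3, 38.5% for Osmr, 40.6% for Socs3 and 49.3% for Il6ra, the last 3 being the members with the lowest mean CPM. Tyk2 was also low, at 5.54 to 9.82 CPM in Trap, with less spread relative to its mean than Osmr.

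The cytokines themselves were mostly scarce. Of 12 ligand genes 5 passed the count filter across Trap and Input, 4 of them higher and 1 lower in Trap. Of all genes tested 43.8% were higher and 44.2% lower. Cntf, the astrocyte-derived ciliary neurotrophic factor, stood at 19.9 ± 3.75 CPM per kb in Trap against 2.23 ± 0.19 CPM per kb in Input, and its log2 difference was 3.15 ± 0.128. Ctf1 (cardiotrophin 1) and Lif were higher in Trap by 2.60 ± 0.145 and 2.33 ± 0.205 on the log2 scale. Clcf1, the cardiotrophin-like cytokine, was lower by 1.07 ± 0.230 on that scale, with 1 to 10 estimated counts per Trap library.

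The other ligands were near the limit of detection. Il6 had 1 count in all 24 Trap libraries together and 5 in the 8 Input libraries. Osm had 8 counts in all Trap libraries and 22 in all Input libraries. Il27 was at 0 in every Trap library, and Il31 at 0 in all 32 libraries, which allows up to 3 counts per library, or 0.175 CPM without TMM scaling in the shallowest, for counting error only. Among the receptors outside the 10 genes, Il11ra1, the alpha receptor of IL-11, was higher in Trap by 2.28 ± 0.064 on the log2 scale. Il11ra1 has near-identical copies in the mouse genome, so its level is uncertain. Il27ra and Il31ra did not pass the filter.

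Other JAKs and STATs split between the fractions. Of 7 genes 6 were tested, 3 higher and 1 lower in Trap, where 43.8% of all genes tested were higher and 44.2% lower. Stat5a was higher by 2.43 ± 0.102 and Stat5b by 1.03 ± 0.057, STATs best known downstream of other cytokines, and Stat6 had a log2 difference of -1.25 ± 0.108. Stat5a and Stat3 overlap at their 3' ends on opposite strands, and the strand setting of the counting was not given. Of 15 negative regulators 7 were higher and 6 lower in Trap (median -0.05), near those shares of all genes. The phosphatase gene Ptpn2 differed by 1.58 ± 0.072, while Socs5 (-1.46 ± 0.047), Socs2 (-1.97 ± 0.146) and the phosphatase gene Ptpn6 (-2.58 ± 0.161) were lower in Trap. Of 19 known STAT3 target genes 12 were higher and 6 lower in Trap, with a median of 0.99, beside 43.8% and 44.2% of all genes. Gfap, the astrocyte filament gene, differed by 3.13 ± 0.064 and is also on the astrocyte marker list. The hyaluronan receptor gene Cd44 differed by 2.64 ± 0.083, the survival gene Mcl1 by 1.35 ± 0.047 and the cyclin gene Ccnd1 by -3.24 ± 0.087.

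**Figure D2:**
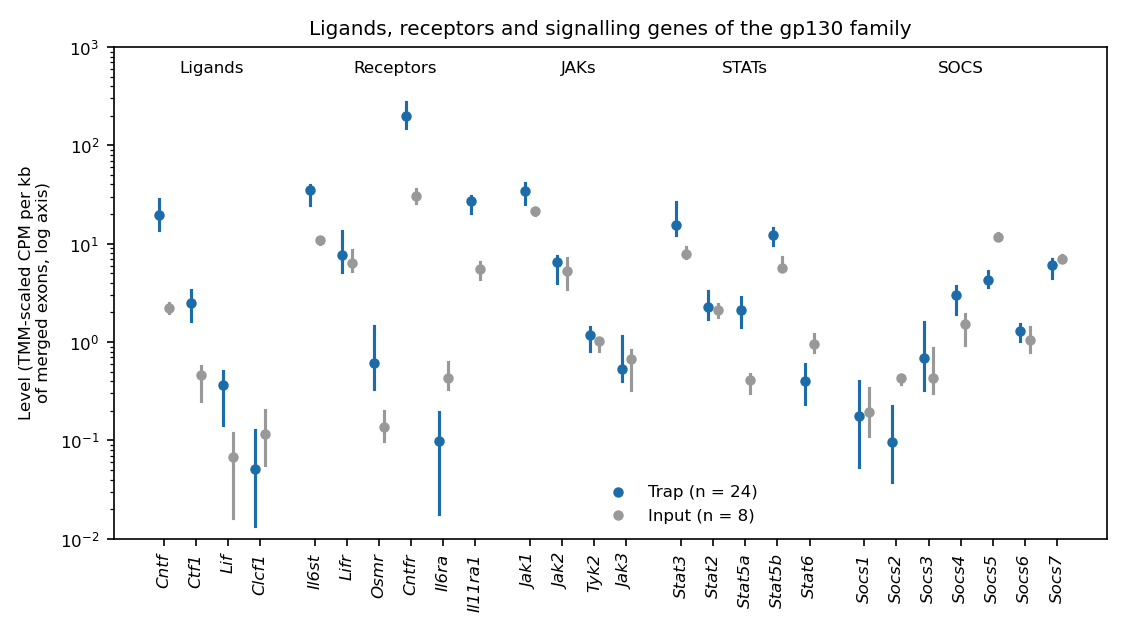
Levels per kilobase of merged exon (TMM-scaled CPM per kb, log axis) for ligands, receptors, JAKs, STATs and SOCS genes, with the median as a point and the lowest to highest library as a line, Trap (blue, n = 24) left of Input (grey, n = 8). Cntfr at 202 CPM per kb on average is the highest gene drawn in Trap, and Cntf is the highest ligand at 19.9.

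Members were read for the STAT palindrome TTCNNNGAA, which is its own reverse complement and so covers both strands, in the 250 bases before each RefSeq start. Of 32851 RefSeq promoters 7.02% held it, and 8.13% of genes had such a promoter. Socs3 was the 1 member of 10 that held it, starting 154 bases before its RefSeq start. The stretches of Stat3 and Socs3 are printed because they are the factor and its known feedback target. They run 5' to 3' on the minus strand of GRCm38.p6, without bases that the annotation counts as exon, with the palindrome in capitals. The Stat3 stretch is chr11:100939541-100939790 and the Socs3 stretch chr11:117969452-117969616. The Socs3 stretch lies inside the GENCODE span of the gene, whose 5' end is at 117970047, so it is upstream of the RefSeq start only. The end of this Socs3 promoter, past the RefSeq start, was not found in the GENCODE transcript sequences searched.
Stat3: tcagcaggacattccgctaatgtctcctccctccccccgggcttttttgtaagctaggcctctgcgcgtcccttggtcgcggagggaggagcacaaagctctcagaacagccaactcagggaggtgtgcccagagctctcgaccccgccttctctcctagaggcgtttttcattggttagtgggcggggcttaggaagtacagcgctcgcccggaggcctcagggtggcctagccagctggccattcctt
Socs3: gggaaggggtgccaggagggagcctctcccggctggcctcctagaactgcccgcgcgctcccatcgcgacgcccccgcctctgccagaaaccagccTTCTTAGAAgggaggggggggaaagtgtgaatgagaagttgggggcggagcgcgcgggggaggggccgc
A match describes the letters of the window and is no measure of binding.

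At 3 weeks after fracture Stat3 had the smallest unadjusted p of the members in the astrocyte fraction, but no member passed the test across all genes. Of 15380 genes tested 17 passed, which is 0.111%, and 8.64% had an unadjusted p under 0.05. Among the members 3 had an unadjusted p under 0.05, Stat3, Osmr and Socs3, each with a higher level. Of the astrocyte markers 1, the gap junction gene Gja1, was called, with a log2 difference of -0.33 ± 0.064 (edgeR adjusted p = 0.0267), and the other 9 were not. The median log2 difference was -0.01 over the members and 0.00 over all genes tested. DESeq2 called 135 genes, 1.06% of those it tested, and 1 member, Stat3.

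At 3 weeks Stat3 stood at 175, 184 and 149 CPM in the males and 219.6, 251 and 138 CPM in the females. The uninjured libraries had 143, 132 and 132 CPM in males and 167, 153 and 138 CPM in females. Of the 6 libraries after fracture 4 were above the highest uninjured library, and female 3 weeks replicate 3, the library with the highest neuron markers, lay among the uninjured ones. The log2 difference was 0.37 ± 0.101 (SE, 6 against 6 libraries, edgeR adjusted p = 0.152). Without that library it was 0.48 ± 0.076 with an adjusted p of 0.00523, and 0.3% of genes were called. With an index of other cells' markers minus astrocyte markers as a covariate it was 0.38 ± 0.072 (edgeR adjusted p = 0.0199), with 0.331% of genes called. That index was the mean of neuron, oligodendrocyte, microglia and endothelial scores minus the astrocyte score, which includes Gfap and Gja1. Without both libraries that stood apart the Stat3 difference was 0.48 ± 0.066 (edgeR adjusted p = 0.000708), with 0.679% of genes called. DESeq2 gave 0.37 ± 0.106 (adjusted p = 0.046). Leaving out 1 library at a time gave log2 differences of 0.28 to 0.48 and 1 call in 12 fits.

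Osmr at 3 weeks had 7.01, 7.68 and 5.01 CPM in males and 13.7, 17.7 and 8.60 CPM in females. In uninjured mice it had 6.35, 4.90 and 4.72 CPM in males and 7.07, 10.8 and 8.01 CPM in females. The highest 2 values were both females after fracture, and the groups overlapped. The log2 difference was 0.47 ± 0.186 (edgeR adjusted p = 0.437), and adjusted p ran from 0.151 to 0.790 when 1 library at a time was left out.

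Socs3 was near the lower end of what was counted, with 18 to 85 estimated counts per Trap library. It had 2.13, 2.75 and 1.69 CPM in males and 3.13, 4.63 and 2.85 CPM in females at 3 weeks. The uninjured libraries had 1.73, 1.91 and 1.71 CPM in males and 0.936, 3.41 and 1.36 CPM in females. Uninjured female replicate 2 stood above its fellows and above 5 of the 6 libraries after fracture. The log2 difference was 0.60 ± 0.280 (edgeR adjusted p = 0.552), and without uninjured female replicate 2 it was 0.96, still not called.

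**Figure D3:**
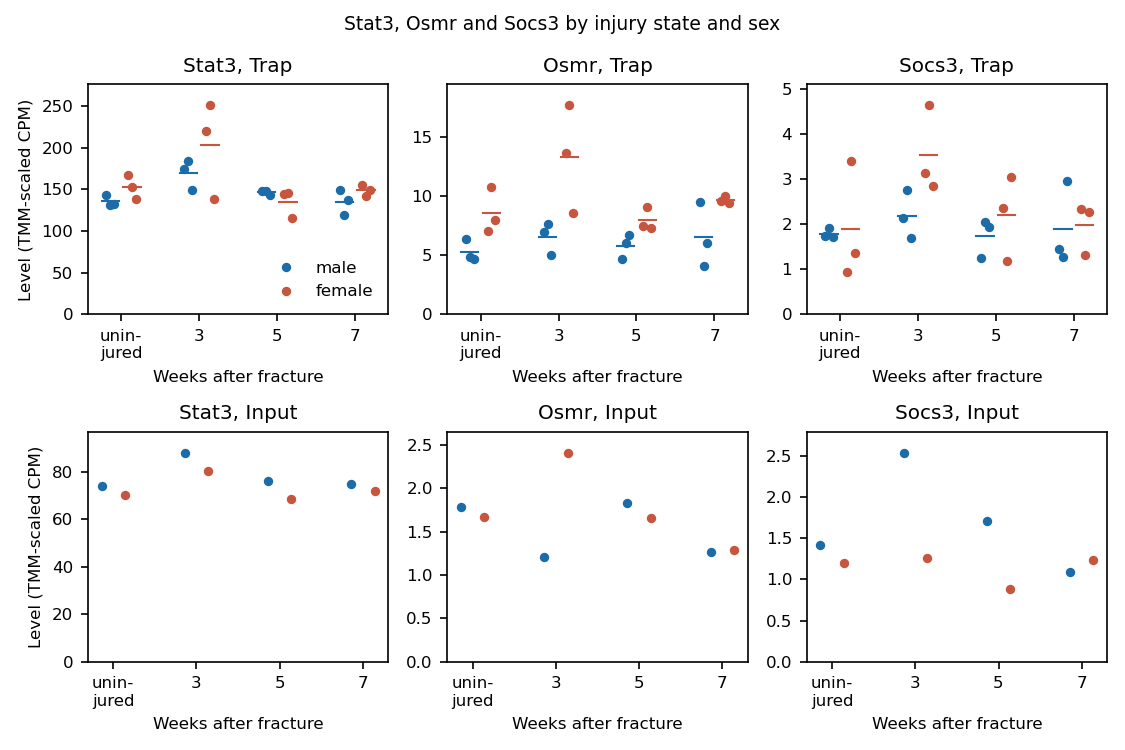
Stat3, Osmr and Socs3 in every Trap library (top row, 3 per sex and state, lines at the means) and Input library (bottom row, 1 per sex and state), as TMM-scaled CPM on axes that start at 0, by weeks after fracture and sex (males blue, females red). Stat3 at 3 weeks reaches 251 CPM in Trap, with 4 of 6 libraries above every uninjured one, and lies within 116 to 155 CPM at 5 and 7 weeks.

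The other members differed less at 3 weeks. Lifr had a log2 difference of -0.25 ± 0.122, Jak1 of -0.17 ± 0.093 and Cntfr of -0.13 ± 0.077, with edgeR adjusted p of 0.596, 0.682 and 0.709. Without uninjured female replicate 1, which had 145 CPM against 77.8 to 91.8 CPM in the other uninjured libraries, the Lifr difference was -0.11. Il6st (-0.08 ± 0.093), Tyk2 (-0.07 ± 0.119) and Jak2 (0.06 ± 0.104) were within their standard errors of 0. Il6ra differed by 0.23 ± 0.421, an error too wide to place it at so few counts.

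At 5 and 7 weeks no member passed, and neither did any of the 15380 genes in edgeR (0% called at each time, with 2.76% of genes at 5 weeks and 2.85% at 7 weeks at an unadjusted p under 0.05). DESeq2 called 1 gene at 5 weeks and 0 at 7 weeks. Stat3 had 148, 148 and 143 CPM in males and 144, 146 and 116 CPM in females at 5 weeks. At 7 weeks it had 149, 119 and 138 CPM in males and 155, 142 and 149 CPM in females. These values overlapped those of uninjured mice, with log2 differences from uninjured of -0.03 ± 0.101 at 5 weeks and -0.02 ± 0.101 at 7 weeks. Osmr had 4.69, 6.02 and 6.75 CPM in males and 7.47, 9.12 and 7.28 CPM in females at 5 weeks. At 7 weeks it had 9.55, 4.07 and 6.03 CPM in males and 9.57, 10.04 and 9.45 CPM in females, and its log2 differences from uninjured were 0.02 ± 0.192 and 0.24 ± 0.189. Neither of the highest levels seen at 3 weeks was reached at these times. Socs3 had 1.24, 2.04 and 1.93 CPM in males and 2.35, 1.19 and 3.04 CPM in females at 5 weeks. At 7 weeks it had 1.45, 1.28 and 2.96 CPM in males and 2.34, 1.31 and 2.27 CPM in females. Its log2 differences were 0.09 ± 0.299 at 5 weeks and 0.09 ± 0.300 at 7 weeks, with overlap at both. Over the 10 members the log2 differences ran from -0.20 to 0.18 at 5 weeks and from -0.14 to 0.24 at 7 weeks, with 0 members at an unadjusted p under 0.05. All 3 times share the uninjured libraries, and the times were not tested against each other.

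**Figure D4:**
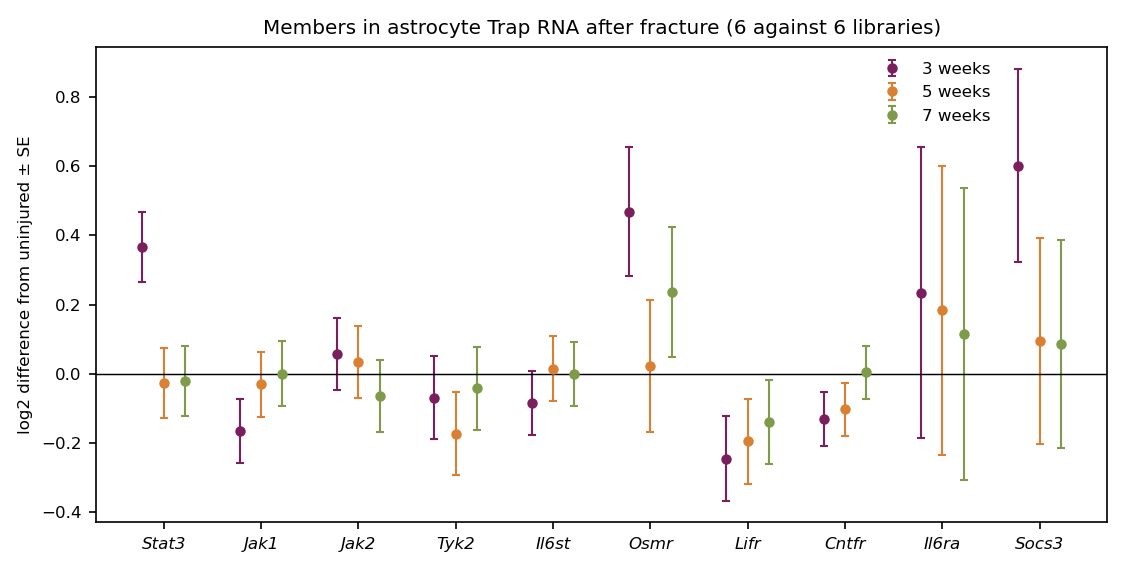
Log2 difference of each member from uninjured in Trap libraries at 3, 5 and 7 weeks after fracture, with SE bars from the edgeR fit (6 against 6 libraries each). Stat3, Osmr and Socs3 lie at 0.37, 0.47 and 0.60 at 3 weeks, and at 5 and 7 weeks the 10 genes lie between -0.20 and 0.24.

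The wider pathway gave no calls in Trap after fracture at any time. At 3 weeks, 0 of 4 tested ligands, 0 of 6 other JAKs and STATs, 0 of 15 negative regulators and 0 of 19 STAT3 target genes passed, against 0.111% of all genes. The median log2 differences were 0.05 over negative regulators and 0.15 over target genes, beside 0.00 over all genes. Of the 19 target genes 14 had positive differences, and Gfap (0.22 ± 0.079) and the immediate early gene Junb (0.57 ± 0.212) had the smallest p of the list, with edgeR adjusted p of 0.347 and 0.375. The smallest p of the other lists belonged to Lif (0.43 ± 0.230) among ligands, to Jak3 and Stat5b (-0.19 ± 0.071) among JAKs and STATs, and to Pias1 (-0.22 ± 0.086) and Ptpn6 (0.71 ± 0.366) among negative regulators. At 5 weeks the 19 target genes had 8 positive differences and a median of -0.01, and at 7 weeks 7 positive differences and a median of -0.03.

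Between the sexes 1 member, Osmr, was called in the astrocyte fraction. Osmr ran from 4.07 through 6.02 to 9.55 CPM (lowest, median and highest) in the 12 male Trap libraries, against 7.07, 9.28 and 17.7 CPM in the 12 female ones. The sexes overlapped over all libraries. The log2 difference, male minus female, was -0.69 ± 0.131 (edgeR adjusted p = 0.0206). Of 15380 genes 0.195% were called between the sexes, 0.104% lower in males. The call held in 22 of 24 fits that left out 1 library, and without male 5 weeks replicate 1 or male uninjured replicate 3 the adjusted p was 0.0511 and 0.0515, with 0.115% of genes called in each. In Input the difference of Osmr was -0.27 ± 0.241 (adjusted p = 0.387). Name prefixes in the deposited table differ by sex and also by replicate number, so sex and prefix cannot be told apart. The labels do not say what the prefixes mark.

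No other member was called between the sexes in Trap. Cntfr (0.15 ± 0.055) and Jak2 (-0.18 ± 0.074) had adjusted p of 0.352 and 0.443 in edgeR. The fracture effect itself was not called different between the sexes for any member or any gene at 3, 5 or 7 weeks (0% each in edgeR, with 2.59%, 3.03% and 1.97% of genes at an unadjusted p under 0.05, and 1 gene at each time in DESeq2). For Stat3 the male effect minus the female effect at 3 weeks was -0.10 ± 0.202, an estimate smaller than its error. Lifr at 5 weeks was the 1 member with an unadjusted p under 0.05, at 0.67 ± 0.244 (edgeR adjusted p = 0.997). Without uninjured female replicate 1, the library far above its group, it was 0.41. Lifr had 98.6, 90.7 and 78.5 CPM in males and 85.6, 82.3 and 56.1 CPM in females at 5 weeks, against 83.6, 81.5 and 77.8 CPM in uninjured males and 145, 89.3 and 91.8 CPM in uninjured females.

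In whole cord no member passed after fracture, with 2 Input libraries against 2. At 3 weeks 182 of 16803 genes were called (1.08%), and at 5 and 7 weeks 0.107% and 0.214%. Stat3 at 3 weeks had 87.9 CPM in the male and 80.3 CPM in the female, against 73.7 and 70.2 CPM in the uninjured male and female. These did not overlap, as was so for 20.4% of all genes, 11.1% higher, and the log2 difference was 0.21 ± 0.062 (edgeR adjusted p = 0.131). It was 0.19 to 0.23 when 1 library at a time was left out. All 10 microglial markers also had positive differences, with a median of 0.24, of which 1, C1qb, was called (0.36 ± 0.082). The summed microglial markers were 369 CPM in the male and 331 CPM in the female at 3 weeks, against 322 and 266 CPM in the uninjured male and female. Other lists moved too. Of 10 endothelial markers 8 were positive (median 0.17), as were all 6 tested of blood and neutrophils (median 0.21), with 0 called in either list. Among astrocyte markers 2 were called lower, and among oligodendrocyte markers 1. The part of any of these markers in the Stat3 level was not tested. Jak1 did not overlap at 3 weeks either, but was lower. It had 154.5 CPM in the male and 155.3 CPM in the female, against 157.3 and 167.6 CPM in the uninjured male and female. Its log2 difference was -0.08 ± 0.057 (edgeR adjusted p = 0.565). Jak2 (-0.26 ± 0.092) and Lifr (-0.24 ± 0.091) had edgeR adjusted p of 0.198 and 0.255 at 3 weeks. Without the uninjured female the Lifr difference was -0.10, and without the uninjured male -0.36, where the single library left is assumed to vary like the others. Socs3 had 2.54 CPM in the male and 1.26 CPM in the female at 3 weeks, against 1.42 and 1.20 CPM in the uninjured male and female, a log2 difference of 0.51 ± 0.326 (edgeR adjusted p = 0.530). Without the male at 3 weeks it was 0.12, and without the female at 3 weeks 0.76. At 5 and 7 weeks Stat3 differed by 0.01 ± 0.063 and 0.04 ± 0.064.

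Jak2 and other members differed between male and female libraries of whole cord, in a comparison added after the values were seen. Every male library of whole cord had the same name prefix, and the female ones had no such prefix. Sex and prefix therefore cannot be told apart here either, and the differences below may belong to either of them. Jak2 had 22.3, 17.6, 19.9 and 22.3 CPM in the male Input libraries (uninjured, 3, 5 and 7 weeks), against 35.1, 31.1, 35.8 and 33.5 CPM in the female ones. The log2 difference, male minus female, was -0.77 ± 0.066 (edgeR adjusted p = 1.09e-07). Lifr (-0.37 ± 0.065), Il6st (-0.12 ± 0.043) and Jak1 (-0.11 ± 0.041) were also called lower in males, and Cntfr (0.25 ± 0.048) higher, 5 members in all. Of all 16803 genes 46.2% were called, so the share among members is near the background. The 10 most abundant genes took 5.86% to 6.39% of counts in male Inputs and 6.86% to 7.26% in female Inputs, and the part of this in the result was not tested. Il6st and Jak1 were each called in 2 of 8 fits that left out 1 library, Jak2, Lifr and Cntfr in 8 of 8. In Trap, Jak2 overlapped between the sexes.

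For Stat3, Osmr and Socs3 the genes with the most similar pattern were sought among 12199 genes over the 24 Trap libraries, by the root-mean-square difference between standardised log2 CPM, where the median gene lay at 1.37 to 1.41. Nearest to Stat3 were Pros1 (0.478), which encodes protein S, the growth factor receptor gene Fgfr1 (0.577) and Adamtsl2 (0.591). Nearest to Osmr were the complement gene C4b (0.486), the urea transporter gene Slc14a1 (0.552) and Rgl1 (0.627). Socs3 was nearest to the Fc receptor gene Fcgr2b (0.649), Trim47 (0.666) and Dkk3 (0.673).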

How the data were processed

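The labels describe poly-A RNA-seq of lumbar spinal cord. The authors deposited 1 table of RSEM estimated counts per gene. Per the submitters' processing notes, FastQC, Trim Galore, STAR, RSEM and GRCm38 were used, and neither versions nor the annotation are given in the sources used here.

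Estimated counts were rounded. After filterByExpr and TMM scaling, robust quasi-likelihood tests (2-sided) were run in edgeR 4.0.16 under R 4.3.3. Benjamini-Hochberg adjustment covered all genes of a fit, and an adjusted p under 0.05 is a call. The 24 Trap libraries formed 1 fit with a mean per sex and state (16 residual degrees of freedom), the 8 Input libraries another with sex as a term (3), and Trap against Input used all 32 with sex and state as terms. The script was tested on simulated counts. Levels are TMM-scaled CPM, per kb of merged GENCODE M21 exons where so stated. Gene identifiers matched 55141 symbols. Named were the members, up to 4 called genes of each list (otherwise up to 2 by p), the ligands, and the 3 genes nearest in pattern to Stat3, Osmr and Socs3. Members and lists were chosen with earlier results of these data known. DESeq2 1.42.0, size factors, no filter, replicate blocks, a marker covariate and left-out libraries were alternatives. The markers Gja1 and C1qb were named after their values were seen. Results for some listed genes are not reported here. Marker lists served to check the libraries. Promoter letters are RefSeq's. Counting limits cover counting error only.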

Additional observations from a re-analysis of the deposited data

Results flagged for a closer look

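Single libraries lay far from the other 5 of their Trap group, by Dixon's test at the 95% level, in 4 of 50 groups tested (each of 10 members in the Trap libraries of 4 states and in Input), and chance gives about 1 in 20. Stat3 had 116 CPM in female 5 weeks replicate 3, against 143 to 148 CPM in the others. Lifr had 145 CPM in female uninjured replicate 1, against 77.8 to 91.8 CPM in the others. Male 7 weeks replicate 2, one of the libraries that stood apart, accounted for the other two. It had 278 CPM of Il6st, against 395 to 435 CPM in the others, and 770.5 CPM of Cntfr, against 536 to 568 CPM. Its summed neuron markers were 818 CPM, the highest of the 7 weeks Trap libraries and below only the 1008 CPM of female 3 weeks replicate 3 among all 24.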

How the results depend on the processing

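Over the members' log2 differences 1833 values under other settings kept direction and side of the threshold, 21 lost the call, 5 gained it, 61 moved by more than an SE and 0 reversed a call. The members called at 3 weeks in Trap numbered 1 in place of 0 with the DESeq2 Wald test, 1 with the marker covariate and 1 without the pair of libraries that stood apart, each time Stat3. Leaving out 1 library gave 0 to 1 members at 3 weeks, 0 to 1 between the sexes in Trap, and 3 to 5 between the sexes in Input. Genes called at 3 weeks numbered 17, against 34 without a filter, 135 with DESeq2, 44 with a replicate block, 77 with the block within each sex (added after seeing the data), 52 with the covariate, 106 without the pair, and 3 to 47 without 1 library. Between the sexes in Trap they numbered 30, against 93 with DESeq2, 57 with the covariate, 46 without the pair and 18 to 47 without 1 library. In Input without 1 library they numbered 34 to 201 at 3 weeks, 7 to 49 at 5 weeks and 16 to 50 at 7 weeks, with 182, 18 and 36 from all libraries. After group means were removed, same-numbered libraries of a sex correlated at a median of 0.06 (-0.07 to 0.22). Libraries of a sex with other numbers had a median of -0.03 (-0.24 to 0.10). The main fit did not treat the numbers as pairs, so it leaves out any effect that same-numbered libraries share. With the replicate block Stat3 at 3 weeks was 0.36 (edgeR adjusted p = 0.0953), and 0 members were called. With the block within each sex Stat3 was 0.36 ± 0.083 (edgeR adjusted p = 0.0534). Depth was low for Il6ra, with 3 to 31 counts per Trap library, and Socs3, with 18 to 85.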

Other observations

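Jak3, the JAK of lymphoid cells, had the smallest unadjusted p at 3 weeks in Trap among the genes of the pathway lists. It had 4.87, 2.80 and 3.71 CPM in males and 6.09, 4.52 and 4.11 CPM in females, against 2.50, 3.62 and 2.18 CPM in uninjured males and 3.12, 3.69 and 2.92 CPM in uninjured females. The groups overlapped, and the log2 difference was 0.51 ± 0.162 (edgeR adjusted p = 0.239).

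Uninjured female Trap replicate 2, whose Socs3 and Osmr were the highest of the uninjured libraries, also held 48.2 CPM of Lcn2 and 10.95 CPM of Timp1, both known STAT3 target genes. The other Trap libraries held 0.0496 to 5.01 CPM of Lcn2 and 0.843 to 2.75 CPM of Timp1. This library was singled out after its values were seen.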
